A study of Mus musculus with 14 samples.

Results

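The 6 MLL-AF9 cultures of mouse bone marrow origin were placed in 2 sets by the overall similarity of their RNA-seq libraries, across the 2 vectors used to make them. Set A held neo 1, puro 1 and puro 3, and set B held neo 2, neo 3 and puro 2, so 6 of the 14 libraries of the series were compared. MLL-AF9 is the fusion of the histone methyltransferase gene MLL (Kmt2a) with AF9 (Mllt3). All 6 cultures came from C57BL/6 mice of genotype WT. Femur and tibia marrow of mice aged 8 to 20 weeks was enriched for stem and progenitor cells of the blood (HSPCs), grown overnight with SCF, GM-CSF and the interleukins IL-6 and IL-3, and transduced with a retrovirus, either pMSCV-MLL-AF9-neo with neomycin selection or pMSCV-MLL-AF9-puro with puromycin selection. The transduced cells were then replated in methylcellulose. In pMSCV vectors the viral long terminal repeat drives the insert, so expression of the fusion is not limited to a cell type. The labels do not say whether the cultures came from separate mice or separate transductions, nor how many cells founded each. The remaining libraries were 4 of WT HSPCs, used here as a reference, and 4 of Mir139KO HSPCs, used only for ranges of levels. No library of cultured HSPCs without the fusion was among them.

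MLL fusions keep a stem cell gene program active in myeloid progenitors, centred on HOXA cluster genes and their partner Meis1, and hold the cells short of full maturation. Such cultures contain cycling blasts beside cells that have moved towards granulocytes or macrophages. Proliferating cells make DNA replication enzymes, mitotic kinases, S-phase histones and the factors that assemble ribosomes, whereas maturing myeloid cells take up granule proteins, lysosomal enzymes, chemokine receptors and surface receptors for microbes.

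The sets were chosen on the same values that are compared below, so every difference between them is a description and no p-value is given for it. Of the 52550 genes in the table, 16503 had at least 10 counts in at least 3 of the 6 libraries and were compared. A gene was called split when the 2 sets did not overlap and their mean log2 CPM (counts scaled to library size) differed by at least 1. By this rule 2055 genes, 12.5% of those compared, were higher in set A and 1607, 9.74%, were higher in set B. The sets did not overlap in 7773 genes (47.1%) when no size of difference was asked for. Just inside the limit lay E230025N22Rik at 1.0006 (A minus B) and Cox5b at -1.0006, and just outside lay Crtc3 at 0.99995 and Rttn at -0.9997. Of the split genes, 222 that were higher in set A had under 10 counts in every library of set B, and 73 that were higher in set B had under 10 counts in every library of set A, so these passed the filter only through the set in which they were high.

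The libraries fitted the description of 2 states only in part. Puro 1 and puro 3 were nearly alike, with a Pearson correlation of log2 CPM of 0.994 over genes and a mean chi-square of 9.19 per gene, against 63.8 for neo 2 and neo 3 and 201 or more for every other pair. They still differed by more than the sampling noise of counts and were kept as 2 samples. Neo 1 was nearest to neo 3 of set B (Euclidean distance 130, correlation 0.948) and farther from the puro 1 and puro 3 libraries of its own set (147 and 143, correlations 0.927 and 0.931). Average, complete and Ward linkage recovered the 2 sets, whereas single linkage joined neo 1 to set B. The first principal component held 51.9% of the variance and the second 28.8%. Set A thus held a close pair and a more distant library, and medians within the neo cultures and within the puro cultures are given beside the larger gene lists below.

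**Figure D1:**
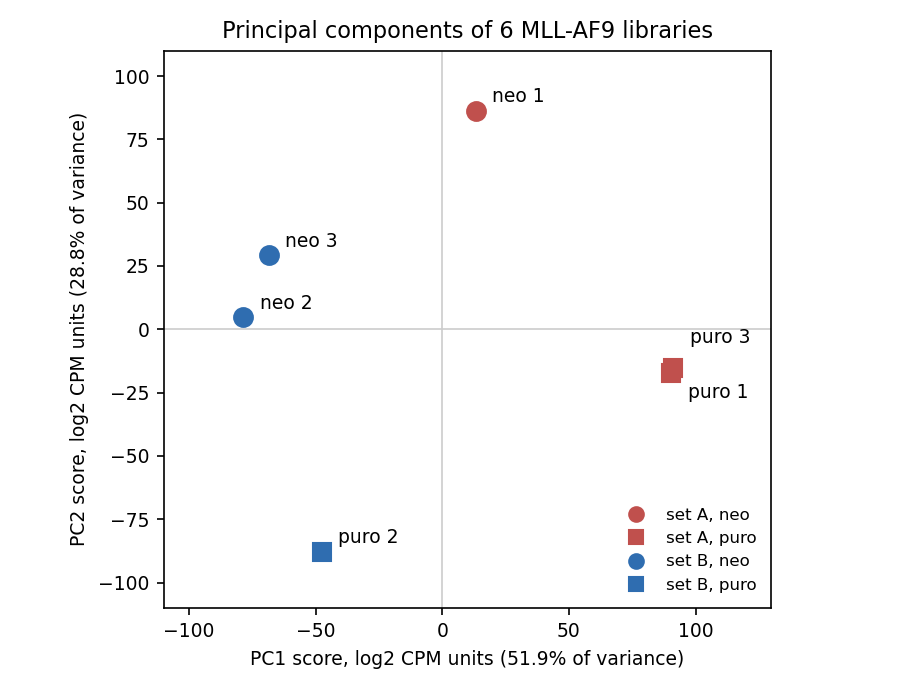
Scores of the 6 MLL-AF9 libraries on the first principal component (x axis) and the second (y axis) of log2 CPM over 16503 genes, with circles for neo, squares for puro, red for set A and blue for set B. Puro 1 and puro 3 lie together at 90.5 and 91.1 on the first component, set B lies between -78.6 and -47.7, and neo 1 lies at 13.2, apart from all others at 86.3 on the second, with puro 2 at the other end at -87.8.

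Library depth moved with the sets. Total counts were between 35629341 and 38329220 in set A and between 41527599 and 43407331 in set B, whereas genes reaching 10 counts numbered 16266 to 16675 in set A and 15561 to 16205 in set B. The long non-coding RNA Gm26917 took 7.55% to 10.4% of counts in the 6 libraries without separating the sets. Mitochondrially encoded genes took 2.34% of counts in neo 1 and 1.05% to 1.46% in the other 5. The part of depth in the differences was not tested.

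The clearest common feature of the sets was a lower level of cell division genes in set A. In a list of 37 compared genes of the cell cycle and DNA replication, 35 were split and higher in set B and none in set A, beside 9.74% and 12.5% of all genes. The list median of the difference was -1.88, against 0.04 over all genes. It was -1.42 in the neo cultures alone and -2.02 in the puro cultures alone. Summed over the list, CPM reached 1036 in puro 1 and 1079 in puro 3, 1870 in neo 1, and 5079, 4364 and 4548 in neo 2, neo 3 and puro 2. Neo 1 therefore lay between, and for 14 of the 37 genes it was nearer to the set B mean than to the mean of puro 1 and puro 3. Without neo 1, 36 of the 37 genes were split and higher in set B. In the 8 HSPC libraries the same sum was 6227 to 7788.

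Rrm2 (ENSMUSG00000020649, chr12:24708241-24714146, plus strand, GRCm38), the small subunit of ribonucleotide reductase, which supplies deoxynucleotides for replication, was at 32.2 CPM in neo 1, 17.1 in puro 1 and 17.7 in puro 3. It was at 180 CPM in neo 2, 148 in neo 3 and 120 in puro 2. All of set B stood well above set A, and the difference was -2.73 on the log2 scale (pooled SD within sets 0.42, n = 3 and 3). Ccnb1, the cyclin that drives entry into mitosis, was at 37.6 CPM in neo 1 and at 11.1 and 12.2 in puro 1 and puro 3, against 114, 99.8 and 98.8 in neo 2, neo 3 and puro 2. Its difference was -2.54 (SD 0.69), and neo 1 took an intermediate place. Mcm5, a subunit of the replicative helicase, was at 45.7, 28.9 and 30.3 CPM in neo 1, puro 1 and puro 3 and at 225, 168 and 166 in neo 2, neo 3 and puro 2 (difference -2.38, SD 0.31). Nek2, a kinase of centrosome separation, had a difference of -2.81 (SD 0.70), with 4.27 to 13.7 CPM in set A and 36.8 to 59.6 in set B. Cdk4, which drives passage through G1, differed by -1.53 with 38.7 to 40.6 CPM in set A and 99.7 to 138 in set B, and Rbl1, a pocket protein that restrains E2F, by -1.34. These were the only split members among 17 CDK inhibitors, D cyclins and related genes, whose median was 0.04. Cdk4 and Rbl1 were 11.8% of this list, beside 9.74% of all genes split and higher in set B.

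Replication-dependent histone genes, which are transcribed in S phase and whose messages lack a poly(A) tail, had the most negative median of all lists. Of 56 compared, 54 were split and higher in set B and none in set A. The median difference was -2.20, with -1.82 in the neo cultures and -2.42 in the puro cultures. Summed CPM was 1974 in neo 1, 1466 in puro 1 and 1446 in puro 3, against 6750, 5945 and 7132 in neo 2, neo 3 and puro 2. Here neo 1 went with its own set for 52 of the 56 genes. Hist1h1b, a linker histone gene (ENSMUSG00000058773, chr13:21779883-21780625, minus strand), was at 33.8, 27.0 and 26.9 CPM in set A and at 266, 219 and 190 in neo 2, neo 3 and puro 2 (difference -2.88, SD 0.23). Hist1h3a, a histone H3 gene, was at 13.9, 11.8 and 12.2 CPM in set A and at 95.4, 79.9 and 95.7 in set B (difference -2.78, SD 0.12). The within-set spread of Hist1h3g, also an H3 gene, was smaller still at 0.11, beside a difference of -3.09. Many of these genes are near-identical copies, and how reads that map to several were counted is not stated, so their single values are uncertain while their sum is less so. Ribosomal RNA depletion was used in place of poly(A) selection, so these messages could be captured.

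Because these 2 groups were lower together in set A, promoter sequence upstream of the start is shown for the members with the largest differences in which a 120 base window held each of the motifs named for the group. They were picked after their values were seen. The sequences are from RefSeq on GRCm38.p6, read 5′ to 3′ on the gene's strand and ending at the base before the start. Capitals mark CCAAT (bound by NF-Y) and ATTTGCAT (the octamer of histone H2B genes) in the Hist1h2b genes, and CCAAT and TTTGAA (the core of the cell cycle homology region) in Cdk1 and Ube2c, each on either strand. Hist1h2bm lies at chr13:21721924-21722043 (plus strand) and Hist1h2bk at chr13:22035701-22035820 (plus). The Cdk1 window is chr10:69352913-69353032 (minus) and that of Ube2c is chr2:164769809-164769928 (plus).
Hist1h2bm: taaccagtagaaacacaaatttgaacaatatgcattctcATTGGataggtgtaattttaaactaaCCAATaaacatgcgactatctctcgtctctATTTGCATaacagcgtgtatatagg
Hist1h2bk: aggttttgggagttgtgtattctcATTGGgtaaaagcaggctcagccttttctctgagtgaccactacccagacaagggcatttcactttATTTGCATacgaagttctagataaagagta
Cdk1: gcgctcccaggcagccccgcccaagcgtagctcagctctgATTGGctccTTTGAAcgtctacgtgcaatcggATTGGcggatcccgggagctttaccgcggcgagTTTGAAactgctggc
Ube2c: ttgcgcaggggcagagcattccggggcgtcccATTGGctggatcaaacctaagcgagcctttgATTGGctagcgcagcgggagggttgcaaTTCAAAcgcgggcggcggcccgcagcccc

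Hist1h2bm was at 25.2, 21.6 and 21.9 CPM in neo 1, puro 1 and puro 3 and at 119, 114 and 130 in neo 2, neo 3 and puro 2. Cdk1, the kinase partner of cyclin B, was at 44.3, 23.0 and 23.5 CPM in set A in the same order and at 137, 104 and 172 in set B. Ube2c, the ubiquitin-conjugating enzyme of the anaphase-promoting complex, was at 36.1 CPM in neo 1 but only 7.85 and 8.61 in puro 1 and puro 3, against 53.8 to 77.7 in set B. In the 250 bases before the start, CCAAT was present in 42 of 51 matched histone promoters (82.4%), in 27 of 32 cell cycle promoters (84.4%) and in 36.3% of 17492 protein-coding promoters. TTTGAA was found in 25 of the 51 histone promoters (49%), 12 of 13 H2B promoters and 9 of 32 cell cycle promoters (28.1%), beside 15% of all. ATTTGCAT was in 9 histone promoters (17.6%) and in 1.61% of all. These letter matches are a description of the windows and not of binding.

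Genes of the MYC network and of ribosome assembly were also lower in set A. Of 26 compared, 19 were split and higher in set B, and 1, Mxd1, was split and higher in set A. The median was -1.61, and it was alike within the vectors at -1.70 (neo) and -1.54 (puro). Myc itself was at 87.2, 54.0 and 59.8 CPM in neo 1, puro 1 and puro 3 and at 135, 204 and 173 in neo 2, neo 3 and puro 2 (difference -1.31, SD 0.33). Mxd1, which competes with MYC for its partner MAX, took the opposite course, with 239, 184 and 193 CPM in set A and 98.5, 77.2 and 52.4 in set B (difference 1.52). Ncl (nucleolin, chr1:86344719-86359400, minus strand), an abundant nucleolar protein of ribosomal RNA synthesis, was at 285, 146 and 147 CPM in set A and at 1218, 1317 and 639 in set B (difference -2.41, SD 0.58). Nop58, a core protein of the box C/D particles that methylate ribosomal RNA, had one of the tightest patterns, with 44.3 to 48.3 CPM in set A and 206 to 288 in set B (difference -2.32, SD 0.19). Rrs1, needed for assembly of the large ribosomal subunit, differed by -2.35 (SD 0.56). Of 76 cytosolic ribosomal proteins compared, only Rps27l, a p53 target related to Rps27, was split. Their median was -0.15, with 60 of 76 below 0, and it was -0.50 in the neo cultures and -0.01 in the puro cultures. Neo 1 stood apart, with a summed CPM of 17753 against 24513 to 27727 in the other 5.

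Metabolic groups held fewer split members. In cholesterol and fatty acid synthesis 8 of 28 genes were split and higher in set B, none in set A, and 27 of the 28 had a lower mean in set A than in set B (median -0.65, with -0.84 in neo and -0.93 in puro). The 8 were 28.6% of the list, beside 9.74% of all genes. The count was 13 without neo 3 and 5 without neo 2. Idi1, an isomerase of the mevalonate pathway, was at 2.498, 3.54 and 3.50 CPM in set A and at 13.6, 7.61 and 15.6 in neo 2, neo 3 and puro 2 (difference -1.84, SD 0.42). Fasn, the fatty acid synthase, was at 73.6 to 141 CPM in set A and 229 to 416 in set B (difference -1.68, SD 0.47). The serine synthesis enzyme Phgdh and the mitochondrial one-carbon enzyme Shmt2 led 7 of 26 genes of the ATF4 response that were higher in set B, with differences of -2.25 and -1.96, while Ddit4, an inhibitor of mTORC1, was higher in set A (1.54). The 7 were 26.9% of the list and Ddit4 was 3.85%, beside 9.74% and 12.5% of all genes. The ATF4 list as a whole had a median of -0.19, and its medians were 0.01 in neo and -0.89 in puro. Without puro 2 only 3 of its genes were split and higher in set B, and without puro 1, 4. Of 78 nuclear subunits of oxidative phosphorylation, 9 were split and higher in set B and 1, Cox6b2, higher in set A (median -0.59, with -0.61 in neo and -0.46 in puro). These 9 were 11.5% of the list, beside 9.74% of all genes, and without puro 1 they were 5, while 69 of the 78 lay below 0. Among 29 glycolysis and hypoxia genes, Mif, Ldha, Tpi1 and Eno1 were higher in set B and Vegfa and Ndrg1 higher in set A, and without neo 2 the 4 became 1. The shares were 13.8% and 6.90%, beside 9.74% and 12.5% of all genes. This list had 16 genes below 0 and 13 above, with medians of -0.16 in all, -0.30 in neo and 0.04 in puro. Vegfa, which encodes an angiogenic growth factor, was at 211, 286 and 276 CPM in set A and 90.1, 118 and 161 in set B.

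Windows from 2 further groups are shown for comparison, Idi1 as the leading split gene of the cholesterol list with CCAAT in capitals, and Isg15 as the leading member of the interferon list, described below, whose window held the interferon-stimulated response element, also in capitals. The Idi1 window is chr13:8885486-8885605 (plus strand) and the Isg15 window is chr4:156200819-156200938 (minus).
Idi1: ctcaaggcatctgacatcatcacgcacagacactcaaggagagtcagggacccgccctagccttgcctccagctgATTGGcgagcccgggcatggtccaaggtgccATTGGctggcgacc
Isg15: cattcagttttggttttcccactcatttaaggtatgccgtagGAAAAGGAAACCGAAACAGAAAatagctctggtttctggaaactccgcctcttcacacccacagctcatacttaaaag

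CCAAT was in 13 of 18 matched promoters of the cholesterol list (72.2%) and in 4 of 21 of the MYC list (19%), so the groups that were lower in set A did not share it throughout. The interferon-stimulated response element was in 8 of 16 interferon promoters (50%) and in 3.02% of all protein-coding promoters. The E-box CACGTG was in 3 of 21 MYC list promoters (14.3%), in 7 of 24 lysosome promoters (29.2%) and in 6.64% of all.

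**Figure D2:**
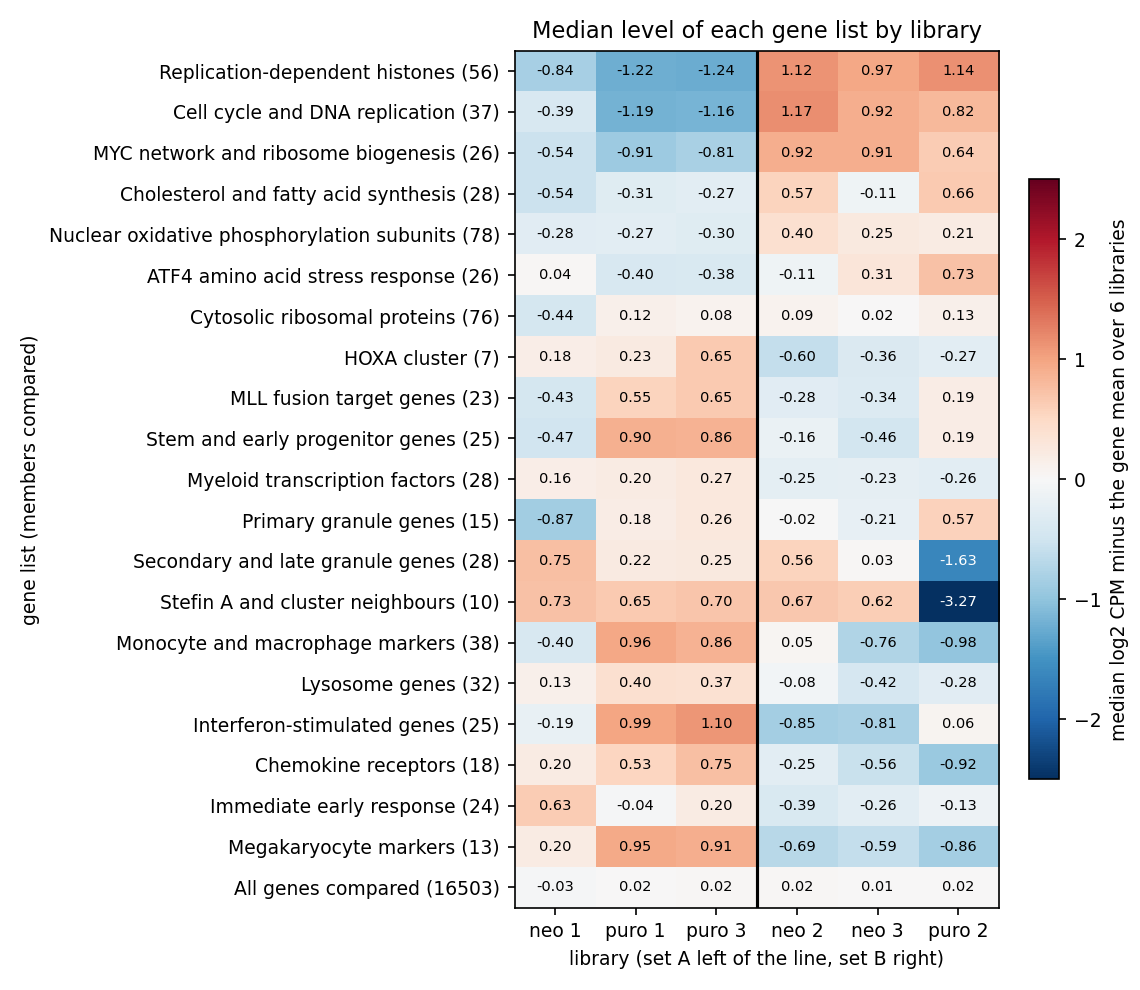
Median over the compared members of each gene list (rows, number of members in brackets) of log2 CPM minus the gene's own mean over the 6 libraries, by library (columns), with set A left of the line and set B right. The top 3 rows change sign between the sets in every library (histones -1.24 to -0.84 in set A and 0.97 to 1.14 in set B), whereas in the monocyte and macrophage row neo 1 (-0.40) lies with set B and in the stefin A and late granule rows puro 2 (-3.27 and -1.63) stands alone.

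Genes of myeloid maturation were higher in set A, but these differences came from fewer libraries. Of 38 monocyte and macrophage markers compared, 9 were split and higher in set A and 1, Fcgr1, higher in set B (median 1.06). These were 23.7% and 2.63% of the list, beside 12.5% and 9.74% of all genes. Within the vectors the median was 1.99 for puro and -0.05 for neo. Neo 1 was nearer to set B for 23 of the 38 genes. Without neo 1, 23 of the 38 were split and higher in set A, and without neo 2, 17. Summed CPM was 4651 in puro 1 and 4407 in puro 3, but 1745 in neo 1, inside the set B range of 1179 to 2122. In bulk RNA a lower level can mean fewer cells of a type or less RNA per cell, and the 2 cannot be told apart.

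Fn1 (fibronectin, an extracellular matrix protein that macrophages secrete, chr1:71585520-71653200, minus strand) had the largest difference of the named genes at 5.66, yet its pooled SD of 3.17 showed how unevenly set A was made up. It was at 1026 CPM in puro 1 and 907 in puro 3, but at 4.59 in neo 1, beside 2.58, 2.94 and 4.71 in neo 2, neo 3 and puro 2. On the 6-library log2 scale of the call neo 1 (2.61) lay just above puro 2 (2.57), whereas on the CPM values above puro 2 was the higher, so the absence of overlap in Fn1 depends on the scale used. Csf1r, the receptor for macrophage colony-stimulating factor, was at 71.6 and 64.5 CPM in puro 1 and puro 3, at 6.08 in neo 1 and at 6.80, 2.79 and 8.21 in set B, so its sets overlapped. Pirb, an inhibitory immunoglobulin-like receptor of myeloid cells, was at 245 and 234 CPM in puro 1 and puro 3, at 28.3 in neo 1 and at 20.4, 14.2 and 7.39 in set B. Lgmn behaved otherwise. This lysosomal cysteine protease was at 22.4, 24.8 and 27.0 CPM in neo 1, puro 1 and puro 3 and at 3.59, 2.74 and 3.66 in neo 2, neo 3 and puro 2 (difference 2.94, SD 0.18), so that neo 1 was as high as the puro libraries. Itgax (CD11c) was highest in neo 1 at 10.7 CPM, with 2.31 and 3.11 in puro 1 and puro 3 and 0.489 to 0.848 in set B. Fcgr1, the high-affinity receptor for IgG, was low throughout, with 0.0402 to 0.232 CPM in set A and 0.880 to 3.53 in set B.

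Of 32 lysosome genes, 9 were split and higher in set A and 1, the glucuronidase Gusb, higher in set B (median 0.59, with 0.37 in neo and 0.72 in puro). These were 28.1% and 3.1% of the list, beside 12.5% and 9.74% of all genes. Psap, the precursor of the saposins that help to degrade sphingolipids, was at 494 CPM in neo 1, 1846 in puro 1 and 1727 in puro 3, against 288, 154 and 352 in set B (difference 2.27, SD 0.87). The cathepsins Ctsh and Ctsk differed by 1.80 and 1.66. For 21 of the 32 genes neo 1 was nearer to puro 1 and puro 3 than to set B.

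Chemokine receptors were higher in set A for 7 of 18 genes and higher in set B for none (median 1.14, with 0.76 in neo and 1.53 in puro). The 7 were 38.9% of the list, beside 12.5% of all genes, and became 11 without neo 1 and also without neo 2. Ccr1, a receptor for inflammatory chemokines, was graded, with 24.1 CPM in neo 1, 55.0 and 58.5 in puro 1 and puro 3 and 8.21 to 18.5 in set B (difference 2.01, SD 0.70). Cmklr1, the chemerin receptor, was at 1.13 to 1.51 CPM in set A and 0.176 to 0.789 in set B.

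Interferon-stimulated genes gave a median of 1.10 (0.52 in neo and 1.19 in puro), with 7 of 25 split and higher in set A and none in set B. The 7 were 28% of the list, beside 12.5% of all genes. Irf7, the transcription factor that amplifies the type I interferon response, was at 4.30, 7.75 and 7.56 CPM in neo 1, puro 1 and puro 3 and at 2.15, 2.43 and 1.68 in set B (difference 1.65, SD 0.41). Usp18, which removes ISG15 from proteins, differed by 2.04, and Dhx58, an RNA sensor, by 1.53. Isg15 itself stayed under 1 CPM in all 6 libraries, at 0.271, 0.785 and 0.904 CPM in set A and 0.177 to 0.254 in set B. Neo 1 was nearer to set B for 16 of the 25, and without it 17 were split and higher in set A, while without puro 2 the count was 11. Levels were low beside HSPCs, with summed CPM of 184 to 272 in set A, 126 to 182 in set B and 366 to 540 in the HSPC libraries.

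Granulocyte genes did not follow the sets as a whole. Of 28 genes of secondary granules and late maturation, Ly6g, Lrg1, Padi4 and Lcn2 were split and higher in set A and none in set B (median 0.96, with 0.53 in neo and 2.53 in puro). These 4 were 14.3% of the list, beside 12.5% of all genes. The count was 9 without neo 1, when 3 were higher in set B, and 13 without neo 2. Padi4, an enzyme that citrullinates histones in neutrophils, was even across set A at 116, 114 and 113 CPM and was at 54.6, 42.3 and 21.9 in neo 2, neo 3 and puro 2 (difference 1.68, SD 0.50). Lcn2, an iron-scavenging granule protein, was at 247, 208 and 206 CPM in set A and at 163, 115 and 24.6 in set B. The list was lowest in puro 2, with a summed CPM of 1665 against 3313 to 5590 in the other 5. For the stefin A genes and their neighbours on chromosome 16, inhibitors of cysteine proteases, the gap was wider, with 86.3 CPM summed in puro 2 and 805 to 1591 in the other 5. Their set difference (3 of 10 split, 30% beside 12.5% of all genes, median 1.30) thus rested on puro 2. Without puro 2 only 1 was split and higher in set A while 2 were higher in set B. Of 15 genes of primary granules, only Mpo, the myeloperoxidase of early granulocyte precursors, was split, with 119, 151 and 161 CPM in set A and 488, 330 and 619 in set B (difference -1.65, SD 0.35). Mpo was 6.67% of this list, beside 9.74% of all genes.

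**Figure D3:**
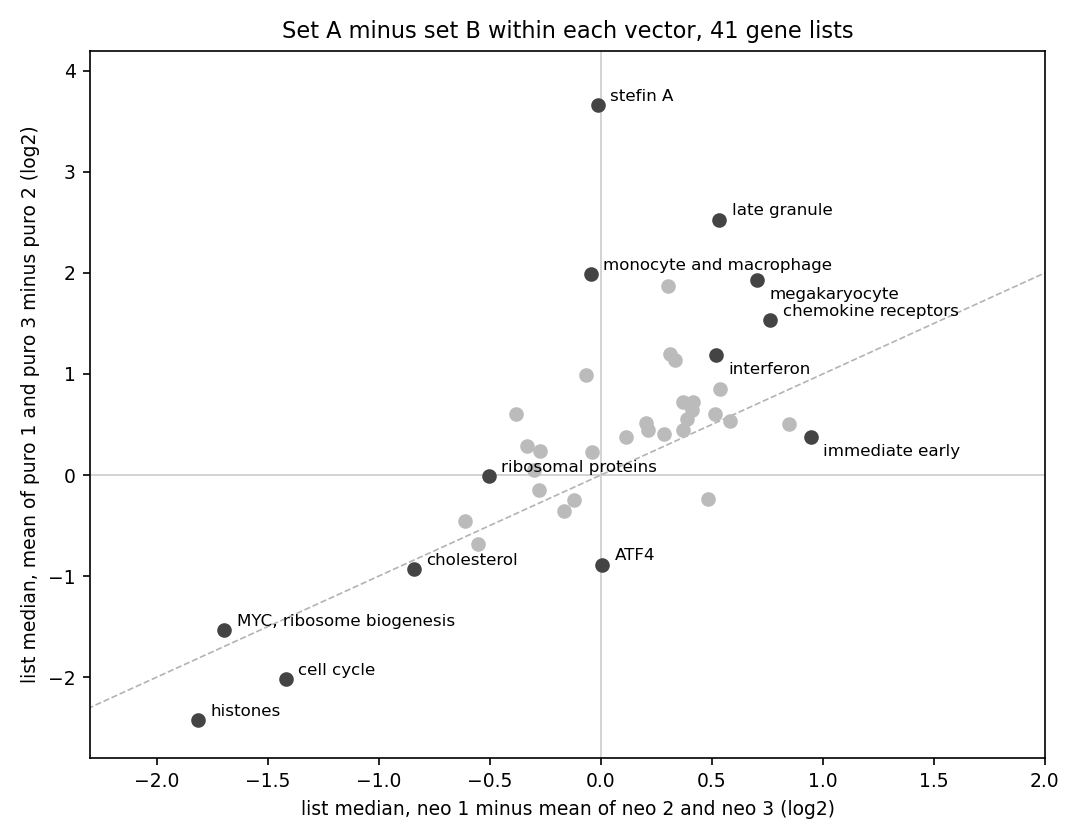
Median difference between set A and set B for 41 gene lists with at least 6 compared members, in the neo cultures (x axis, neo 1 minus the mean of neo 2 and neo 3) and in the puro cultures (y axis, mean of puro 1 and puro 3 minus puro 2), both in log2 units, with a dashed line at equality. Histones (-1.82, -2.42), cell cycle (-1.42, -2.02) and the MYC list (-1.70, -1.54) lie far below 0 on both axes, while the monocyte and macrophage list (-0.05, 1.99) and the stefin A list (-0.01, 3.66) lie above 0 on the puro axis only.

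Transcription factors and survival genes were read in the same way. Of 28 myeloid transcription factors, Bcl6, Irf4, Junb and Id2 were split and higher in set A and none in set B, which is 14.3% beside 12.5% of all genes. The median was 0.48 (0.39 in neo and 0.55 in puro), and without neo 1 the count was 10. Bcl6, a repressor expressed in lymphoid and maturing myeloid cells, was at 18.5, 33.7 and 30.5 CPM in neo 1, puro 1 and puro 3 and at 5.72, 4.19 and 4.71 in set B (difference 2.51, SD 0.37). Junb belonged also to the immediate early genes, of which 6 of 24 were higher in set A (Nr4a1, Btg2, Junb, Ier3, Nr4a3 and Zfp36) and none in set B. The 6 were 25% of that list, beside 12.5% of all genes. Junb and Btg2, an antiproliferative gene, were highest in neo 1 at 110 and 80.3 CPM, with 55.1 to 68.9 and 30.2 to 35.3 in the other libraries of set A and 28.3 to 36.2 and 11.7 to 24.9 in set B. Among 19 BCL2 family genes compared, the BH3-only genes Bmf, Bik, Bcl2l11 (Bim) and Bbc3 (Puma) and the effector-like Bok were higher in set A, and the antiapoptotic Bcl2a1a was higher in set B (list median 0.21, with 0.11 in neo and 0.38 in puro). These were 26.3% and 5.26% of the list, beside 12.5% and 9.74% of all genes. Bmf was at 15.8, 54.3 and 54.4 CPM in set A and at 7.96, 7.07 and 6.55 in set B (difference 2.37, SD 0.75). Bcl2l11 was at 102, 97.6 and 88.1 CPM in set A and at 63.6, 50.3 and 34.8 in set B.

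The program of the fusion itself was followed by 2 lists. Of 23 genes known as targets of MLL fusions, only Id2 was split, at 7.49, 6.76 and 5.84 CPM in set A and 4.89, 3.04 and 2.42 in set B, and the list median was 0.33. Id2 was 4.35% of the list, beside 12.5% of all genes. Without neo 1 the count was 6 and without puro 2 it was 3. Hoxa9, the HOXA gene most tied to this leukemia, was at 157, 133 and 139 CPM in neo 1, puro 1 and puro 3 and at 133, 159 and 122 in neo 2, neo 3 and puro 2, and it was named after its values were seen. The split members of 7 HOXA genes compared were Hoxa13 and Hoxa2 (28.6%, beside 12.5% of all genes), and the count was 3 without neo 1 or puro 2 and 1 without neo 2. Hoxa13 was at 1.70, 5.01 and 4.39 CPM in set A and at 0.276, 0.344 and 0.117 in set B, and was listed at 0 in every HSPC library. Meis1 was also named after its values were seen. It was at 923 and 909 CPM in puro 1 and puro 3 and at 435 in puro 2, against 127, 126 and 244 in neo 1, neo 2 and neo 3, so it followed the vector more than the set. Erg, a transcription factor of stem cells, was split at 77.5, 211 and 197 CPM in set A and 17.4, 15.01 and 62.8 in set B (difference 2.59, SD 0.97). It was the only one of 25 stem and early progenitor genes split and higher in set A, and Myc the only one higher in set B. Each was 4% of the list, beside 12.5% and 9.74% of all genes. Without neo 1 the counts were 10 and 3, and without puro 2 4 were higher in set A.

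Some of the genes that the study names in MLL-AF9 cells were looked at singly. Of these, Hpgd, Kit, Cebpa, Csf3r and Csf1r were not split, whereas Id2, Bmf, Btg2, Polr2m and Eif4g2 were. The study names more genes than these, so no share of its genes that were split is read from this selection. Hpgd, which inactivates prostaglandins, ranged from 14.3 CPM in neo 1 to 722 in puro 2, with 352 and 401 in puro 1 and puro 3 and 144 and 49.7 in neo 2 and neo 3. Kit, the receptor for SCF, was at 118 CPM in neo 1, 47.1 and 47.5 in puro 1 and puro 3, and 42.0, 78.4 and 71.0 in neo 2, neo 3 and puro 2. Cebpa, which drives granulocyte commitment, was at 56.8, 131 and 145 CPM in set A and at 33.0, 36.3 and 98.4 in set B, and Csf3r, the G-CSF receptor, at 47.0, 83.2 and 80.9 and at 22.3, 22.4 and 50.7, so that in both the puro 2 value overlapped neo 1. Polr2m, a subunit of RNA polymerase II complexes, was split, with 10.8, 10.0 and 11.9 CPM in set A and 24.9, 22.2 and 26.8 in set B (difference -1.12), as was Eif4g2, a translation initiation factor, with 256 to 323 CPM in set A and 543 to 999.5 in set B (difference -1.35).

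Chromatin genes were mostly not split. Of 29 subunits of PRC2 and PRC1, Epop and Rbbp7 were higher in set B and Phf1 and Ezh1 higher in set A, with 4 higher in set A without neo 1 or puro 2 and 4 higher in set B without neo 3. Each direction held 6.90% of the list, beside 9.74% (set B) and 12.5% (set A) of all genes. Epop, an accessory subunit of PRC2, was at 0.755, 1.25 and 1.28 CPM in set A and 7.31, 5.24 and 10.9 in set B (difference -2.71). Of 25 partners of MLL fusions, Wdr5, Dpy30 and Polr2m were higher in set B. That is 12% of the list, beside 9.74% of all genes. Among 11 DNA methylation enzymes Uhrf1, Dnmt1 and Dnmt3b were higher in set B and none in set A. These were 27.3% of the list, beside 9.74% of all genes. Uhrf1, which brings Dnmt1 to newly replicated DNA, was at 53.3, 25.8 and 26.9 CPM in set A and at 219, 218 and 203 in set B (difference -2.62, SD 0.41).

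Outside the lists, the largest differences without overlap between the sets included several genes of no common class. Absence of overlap fixes the same sign in both vectors, so that shared sign is no added evidence. Spon1, which encodes a secreted matrix protein (chr7:113765998-114043370, plus strand), was at 34.9, 98.3 and 87.3 CPM in neo 1, puro 1 and puro 3 and at 1.58, 3.91 and 0.372 in set B (difference 5.65, SD 1.33). Kcnn3, a calcium-activated potassium channel gene, was even within set A at 97.1, 102 and 89.5 CPM and was at 14.9, 12.1 and 6.71 in set B (difference 3.22, SD 0.45). Cdh23, an atypical cadherin gene, was at 119, 193 and 182 CPM in set A and 12.8, 26.8 and 16.1 in set B (difference 3.24, SD 0.49). Hid1, Sytl3, Tenm4 and Tjp1 also belonged to the 14 largest, with differences of 3.79, 3.44, 3.35 and 3.22. On the side of set B, Car12, a membrane carbonic anhydrase, led with 32.3, 52.4 and 43.3 CPM in neo 2, neo 3 and puro 2, against 9.57 in neo 1 and 0.423 and 0.320 in puro 1 and puro 3 (difference -5.12, SD 1.88). The RNA-binding protein genes Elavl2 and Lin28b, the latter an inhibitor of let-7 maturation in fetal blood progenitors, followed with -3.51 and -3.44. In both, neo 1 lay between, at 40.6 and 35.8 CPM, with 3.34 to 6.03 in puro 1 and puro 3 and 52.8 to 192 in set B. Adam3 and the lectin gene Mgl2 had differences of -3.27 and -2.95, and the rest of the 14 were Nek2, Rrm2 and 7 histone genes.

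**Figure D4:**
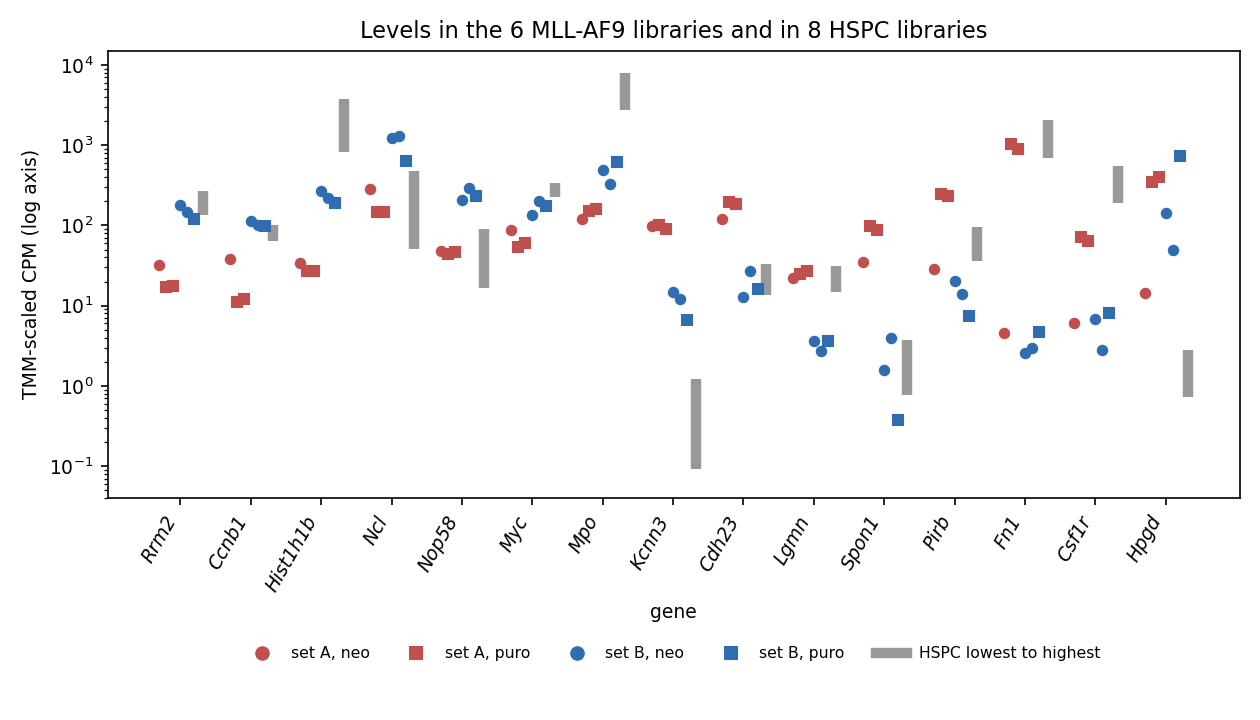
TMM-scaled CPM (log axis) of 15 genes in the 6 MLL-AF9 libraries, drawn from left to right as neo 1, puro 1, puro 3, neo 2, neo 3 and puro 2, with circles for neo, squares for puro, red for set A and blue for set B, and a grey bar from the lowest to the highest of the 8 HSPC libraries. Rrm2, Ccnb1, Hist1h1b, Ncl and Nop58 are lower in all of set A, Kcnn3, Cdh23 and Lgmn are higher in all of set A, and in Fn1 and Csf1r the neo 1 value (4.59 and 6.08 CPM) lies with set B.

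Summed over each list, the markers of other cell types below were lower in both sets than in the HSPC libraries. Some single members were not. Pecam1 was at 13.6 to 108 CPM in the cultures, beside 78.6 to 101 in HSPCs. Lepr, Il7r, Bcl11b, Tcf7 and Tfrc were also above the highest HSPC value in at least 1 culture. Summed CPM of 19 B cell markers was 11.9 to 31.9 in the 6 cultures and 1722 to 6335 in the HSPC libraries, with Ighm at 3.97 to 26.2 and 1556 to 6040. Of 7 compared, 2 were split and higher in set B (28.6%, beside 9.74% of all genes). Both were low, at 0.587 CPM or less in every culture. Of 9 erythroid markers compared 7 were above 0 (median 0.88), with Klf1 and Ermap split and higher in set A and Tfrc split and higher in set B. These were 22.2% and 11.1% of the list, beside 12.5% and 9.74% of all genes. The erythroid sums were 78.0 to 100 CPM in set A and 160 to 214 in set B, against 2775 to 4082 in HSPCs, and the transferrin receptor gene Tfrc, which dividing cells of any type express, made up most of it with 52.9 to 84.3 and 142 to 206. The erythroid genes proper, Klf1 and Ermap, were under 2 CPM in all 6. Megakaryocyte markers were higher in set A for 7 of 13 genes (53.8%, beside 12.5% of all genes) and in set B for none (median 1.46, with 0.70 in neo and 1.93 in puro). Itga2b (CD41) was at 10.6, 9.15 and 8.95 CPM in set A and 2.13, 2.75 and 2.52 in set B (difference 1.99, SD 0.16), and Ppbp at 0.968, 5.53 and 4.90 and at 0.375, 0.272 and 0.645, beside 58.2 to 365 and 13.002 to 97.8 in HSPCs. T and NK cell markers summed to 14.96 to 31.7 CPM in the cultures and 169 to 302 in HSPCs, and those of mast cells, basophils and eosinophils to 24.0 to 77.9 and 1217 to 2613. Of 8 T and NK genes compared only Tcf7 was split, higher in set A (12.5%) and at 1.68 CPM or less. Of 13 in the mast cell list 1 was split each way (7.69%), at 3.06 CPM or less. Stroma and endothelium markers summed to 16.7 to 127 CPM and to 434 to 2661 in HSPCs, and Pdgfra was the only split member, at 0.805 to 1.41 CPM in set A, with 5 without neo 1. In the MHC class II and dendritic cell list Zbtb46 and Xcr1 were split and higher in set A (11 without neo 1 and 5 without puro 2), and the list summed to 55.1 to 187 CPM against 664 to 1185 in HSPCs. Zbtb46 and Xcr1 were 11.1% of the 18 compared, beside 12.5% of all genes.

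Position in the genome set single libraries apart. The Y-linked genes Uty, Kdm5d, Eif2s3y and Ddx3y were among the 14 largest differences in favour of set A, but they were low in puro 2 alone, and without it 0 of the 4 were split. Their summed counts were 15655 to 22279 in 5 libraries and 8 in puro 2, and in the neo cultures their differences were 0.10 to 0.30. Kdm5d and Eif2s3y had no count in puro 2, where 3 counts would be 0.0691 CPM. Xist had 0 counts in all 14 libraries, so it could not serve to tell the sex of the cells. On chromosome 1, neo 3 stood apart. The median of 554 genes averaging a log2 CPM of 3 or more was 0.49 above the mean of the other 5 libraries in neo 3, whereas its medians on the other autosomes and X were between -0.06 and 0.12. Neo 3 was the highest of the 6 libraries for 289 of the 554 (52.2%), against 8.82% of 8671 genes on the other chromosomes. Along chromosome 1 in steps of 20 Mb, the neo 3 median was 0.41 to 0.73 in each of 10 segments. Chromosome 1 held 94 of these genes split and higher in set B (16.97%, against 12.3% elsewhere), and 76 when neo 3 was left out. On the other autosomes and X together the count was 1068, and 1173 without neo 3. The share on chromosome 1 was not the highest, since chromosome 13 had 22.8%. Ncl, Rrs1, Nop58 and Nek2 lie on chromosome 1, and in neo 2 and puro 2 each was at least 2.23 times as high as in any library of set A. DNA copy number was not measured, and what set these libraries apart was not tested.

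**Figure D5:**
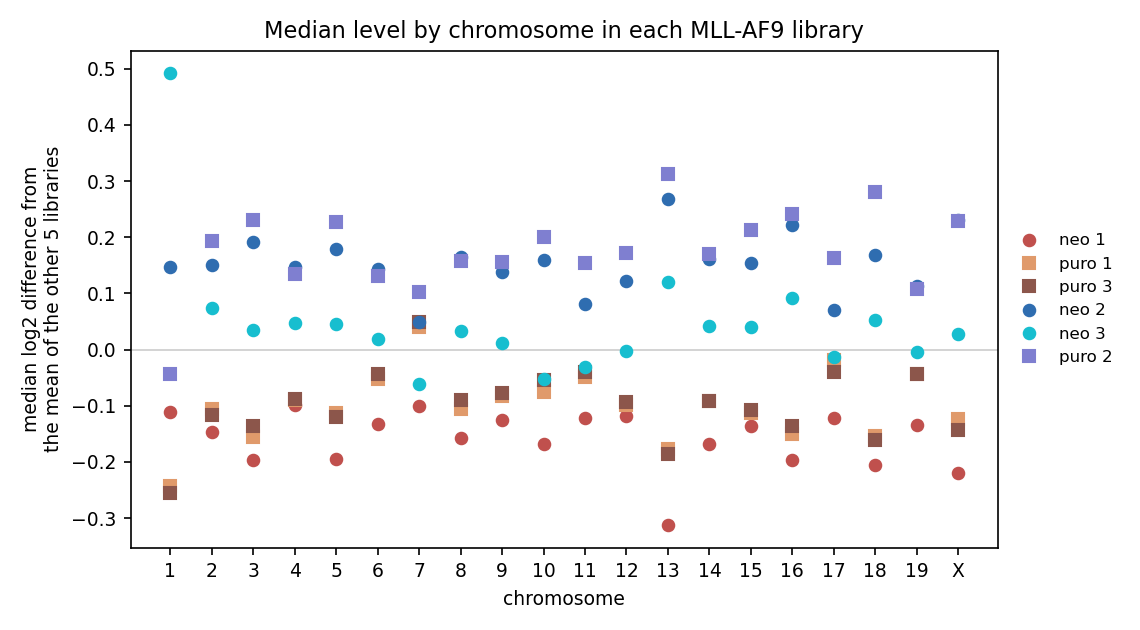
Median log2 difference of each library from the mean of the other 5 (y axis) over genes averaging a log2 CPM of 3 or more, by chromosome (x axis, chromosome Y left out), with circles for neo and squares for puro. Neo 3 is at 0.49 on chromosome 1 and between -0.06 and 0.12 elsewhere, and the other 5 libraries stay between -0.31 and 0.31 throughout.

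Split genes also differed from all genes compared in biotype, level, GC content and length. The classes were picked by the size of the difference and hold the 222 and 73 genes that passed the filter only through 1 set. Their shares and levels thus depend in part on that rule. Of split genes higher in set A 70.8% were protein-coding and 17.3% were lincRNA or antisense genes, of those higher in set B 88.2% and 3.55%, and of all genes compared 81.8% and 8.16%. The median log2 CPM was 0.80 for genes higher in set A, 4.70 for genes higher in set B and 3.69 for all. The median GC content of the longest transcript was 52.2% and 47.6% in the 2 classes and 49.6% over all, and the median length of merged exons was 2872 and 3701 bases against 3736. Across all genes the difference correlated weakly with GC content (Spearman's rho 0.19) and with exon length (rho -0.10), where genes share libraries and are not independent replicates.

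The comparison of all 6 MLL-AF9 libraries with 4 WT HSPC libraries asked where the split genes stood in normal progenitors. It was not used to form the sets, though it includes the same cultures. With edgeR's quasi-likelihood test and Benjamini-Hochberg adjustment over 17077 genes, 32.8% were called higher in MLL-AF9 cells and 29.4% lower. With scaling by total counts the shares were 39.5% and 18.3%. Nothing in the labels says that replicates came from separate mice or cultures, so p-values measure the spread between these samples, which may be technical. Kmt2a, whose 5′ part the fusion carries, rose by 0.90 (SE 0.32, edgeR adjusted p = 0.02675), and Mllt3 was at 0.86 (SE 0.40, edgeR adjusted p = 0.07589); reads of the introduced fusion cannot be told from those of the mouse genes here. Of 1918 genes higher in set A that were tested, 889 were higher in MLL-AF9 cells (46.4%) and 182 lower (9.49%). Of 1570 genes higher in set B, 303 were higher (19.3%) and 540 lower (34.4%). Over all 16081 genes compared between the sets that entered this test, 34.8% were called higher and 26.0% lower. All 56 histone genes tested fell in MLL-AF9 cells (median -3.49), as did 22 of 37 cell cycle genes, while 3 rose. Hist1h1b was at 819 to 3356 CPM in WT HSPCs and fell by 4.00 on the log2 scale (SE 0.77, edgeR adjusted p = 0.0008636, n = 6 and 4), and set B thus lay between set A and HSPCs. Mcm5 fell by 2.82 (SE 0.61, edgeR adjusted p = 0.001802), and Cdk4 by 2.37 (SE 0.45, edgeR adjusted p = 0.0007917). Rrm2 did not pass the test, with -1.30 (SE 0.62, edgeR adjusted p = 0.08464), and its set B levels of 120 to 180 CPM overlapped those of WT HSPCs at 157 to 266. Kcnn3 rose by 6.68 (SE 1.16, edgeR adjusted p = 0.0004622), and even its lowest culture, puro 2, was above the highest HSPC value of 1.23 CPM. Elavl2 (13.02, SE 1.68, edgeR adjusted p = 6.726e-05) and Lin28b (10.08, SE 1.43, edgeR adjusted p = 0.0001257) rose from at most 0.0695 CPM in WT HSPCs. The 7 HOXA genes all rose (median 5.09), as did 15 of 23 MLL target genes. Itga2b fell by 5.01 (SE 0.61, edgeR adjusted p = 4.439e-05) and Mpo by 4.05 (SE 0.54, edgeR adjusted p = 8.465e-05). Their differences between the sets were 1.99 and -1.65. In the WT libraries Gm26917 took 16.99% to 35.4% of counts, more than in any culture. HSPCs and MLL-AF9 cells also differed in culture, selection and replating, which cannot be told apart from the fusion.

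The vectors, which the labels give, were compared as well. Set A held 2 puro cultures and set B 1, so the 2 contrasts share libraries and are not independent. Between 3 puro and 3 neo cultures edgeR's test called 0.873% of 16503 genes (144). With the nearly alike puro 1 and puro 3 summed into 1 sample it called 5 of 17363. It called 41 without neo 1, 0 without neo 2 or without neo 3, 5 without puro 1 and 3 without puro 3. Of the 3662 split genes the test with all 6 cultures called 0, with 165 at an unadjusted p under 0.05 (121 higher in set A and 44 higher in set B). A gene higher in set A has neo 1 above puro 2 and puro 1 above neo 2, and a gene higher in set B the reverse, so the puro and neo values of every split gene overlap by construction. The count of split genes called is thus limited by the rule, and nothing is read from it. DESeq2 called 37 split genes (1.01%) beside 1326 of all 16503 (8.03%). Without puro 2, edgeR called 190 (5.19%) beside 990 of 17222 (5.75%). The correlation of the 2 within-vector differences over genes was 0.549 (Pearson). Of the split genes, 1406 higher in set A and 1012 higher in set B differed by at least 1 within each vector. The sets were formed on these values, and absence of overlap fixes the sign within both vectors, so nothing is read from these figures either. Where the set B mean is set to 0 and the mean of puro 1 and puro 3 to 1, the median place of neo 1 was 0.95 (quartiles 0.68 and 1.29) for genes higher in set A and 0.85 (0.64 and 1.05) for genes higher in set B, values that the choice of genes with no overlap raises.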

How the data were processed

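RNA-seq of ribosomal RNA depleted total RNA gave gene counts for 14 libraries. Per the labels and the study's methods the authors aligned reads to GRCm38 with STAR and deposited whole-number counts per gene from featureCounts (version 1.6.0, GENCODE annotation). Strand and multimapping settings are not given in the sources used here. The 2 deposited tables were equal in the 735700 cells they share, and 10 columns of another series were not used. The sets, members and gene lists were chosen with earlier results of these data known. Genes were placed and named from the annotation, which held 52403 of 52550.

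Set differences are means of log2 CPM (TMM over the 6 libraries, prior count 2). Printed CPM are TMM-scaled over all 14 libraries, a median shift of -0.05 on the log2 scale. The SD is pooled within sets. MLL-AF9 with WT HSPC and puro with neo were compared by edgeR 4.0.16 (quasi-likelihood, TMM, robust, adjusted p under 0.05; R 4.3.3), with DESeq2 1.42.0 and limma-voom (limma 3.58.1) as alternatives. Scripts were tested on simulated data. Named genes were the 14 protein-coding genes with the largest difference each way (mean log2 CPM at least 3 and no overlap). The same sign in both vectors was also asked for, which absence of overlap already gives. Also named were up to 3 split members a list, members needed for small counts and 6 genes of the study. Other genes (Cdk1, Ube2c, Hist1h2bm, Hoxa9, Meis1, Kmt2a, Mllt3, Ighm, Isg15, Bcl2l11 among them) were named after their values were seen. Some genes that the rule names are not reported here. Counting error only is covered by the floor of 3 counts.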

Additional observations from a re-analysis of the deposited data

Results flagged for a closer look

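In each of the groups of 6 cultures below, 1 library stood farther from its nearest neighbour than Dixon's 95% limit allows, which chance does in about 1 in 20 groups. The limit was applied to every reported named gene and to several library measures. These were far more groups than are listed, so some would exceed it by chance. Puro 2 was the low library for the Y-linked genes Uty (0.0978 CPM), Kdm5d (0), Eif2s3y (0) and Ddx3y (0.0587). It was also low for the stefin A cluster genes BC117090 (0.528) and Stfa2l1 (6.30) and for the imprinted gene Sgce (0.587). The 4 Y-linked genes lie on 1 chromosome and the stefin genes in 1 cluster, so these are not separate observations. Neo 1 stood out for the share of counts on mitochondrially encoded genes (2.34%). The causes were not tested.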

How the results depend on the processing

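Split counts (2055 higher in set A, 1607 in set B) were 1247 and 1039 with a mean of at least 100 counts and 622 and 245 with a difference of at least 2, both of which leave fewer genes by construction. Leaving out 1 library gave 2024 to 2734 and 1445 to 1979. Total counts shifted the median by 0.11 and the share of split genes higher in set A from 56.1% to 64.0%. Lists of 5 or more members in which no fewer were split one way than not numbered 4, 12 in the puro cultures only, and 3 to 9 with 1 library left out (9 without neo 1). The stefin A median was -0.38 in a fit of the neo cultures only.

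Against WT HSPCs, genes higher in set A and called below WT numbered 116 at an adjusted p under 0.01 and 96 with total counts, and those higher in set B 192 (above WT, under 0.01) and 332 (below WT, total counts). With a mean of at least 100 counts 402 of the 910 set A genes tested were above WT, beside 32.7% of all genes. With the WT libraries under 25% Gm26917 the counts were 502 and 94 for set A genes (above, below) and 124 and 278 for set B genes. That fit tested 2055 and 1607 of them and called 20.97% of all genes above and 20.8% below. Without 1 library the 4 counts were 718 to 961, 151 to 194, 240 to 346 and 469 to 576. These fits tested 1772 to 2055 set A genes and 1541 to 1607 set B genes. For puro against neo DESeq2 called 37 split genes (1326 of all 16503) and leaving out 1 library gave 0 to 190 (190 without puro 2, beside 990 of all 17222). Causes were not tested.

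Replicate numbers did not pair the samples: correlations of deviations were 0.47, 0.41 and -0.34 for puro and neo and -0.05 to 0.09 for MLL-AF9 and WT. With the number as replicate block the counts against WT were 800, 193, 293 and 525, and 0 split genes differed between the vectors. Total counts of 35629341 to 43407331 limit genes near the floor of 3 counts.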
